A study of Homo sapiens with 6 samples.

Results

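The genes described here encode the protein subunits of the cytosolic ribosome, together with their closest paralogs. They were taken by name: a probe set belonged when the platform annotation gave it exactly 1 gene symbol of the form RPL or RPS followed by a subunit number or the letters A, P0, P1 or P2. That rule used no measured value and gave 71 genes of the 18132 genes tested, with 186 probe sets; 52 of the genes had at least 2 probe sets and 19 had 1. The study put RNA from 6 samples on Affymetrix PrimeView arrays, which read each gene with 1 or more probe sets of short oligonucleotides. The cells were labelled TPC-1, a line from a human papillary thyroid carcinoma, grown in RPMI1640 with fetal bovine serum, although the RNA extraction text names DLD1, a colorectal carcinoma line. All cells had received a lentivirus: 3 arrays held cells with a control shRNA and 3 held cells with an shRNA against SHCBP1, an adaptor that binds the signalling protein SHC1 and acts in cell division. The labels name 1 SHCBP1 shRNA and no rescue, and they call the samples of a group independent without saying that each was a separate culture or infection, so a p-value here covers sample-to-sample spread alone, possibly technical.

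The cytosolic ribosome joins a small subunit, which decodes the mRNA, to a large subunit, which forms the peptide bond, and each carries a set of ribosomal proteins made in matched amounts. Most of their mRNAs begin with a C followed by a run of pyrimidines, the 5′ terminal oligopyrimidine (TOP) tract, through which LARP1 and the mTORC1 kinase control their translation together. Free ribosomal proteins bind one another, chaperones and importins before assembly, and unassembled RPL5 and RPL11 bind MDM2. A change in an mRNA level is therefore not a change in translation or in the number of ribosomes, neither of which was measured.

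The start-site sequences show what the members share. RefSeq promoter windows (GRCh38.p14) were matched for 59 of the 71 members. A TOP tract, defined as C at an annotated start followed by at least 4 further C or T bases, stood at the start of 42 of these 59 members (71.2%) and of 1404 of 27305 genes overall (5.14%). Below are windows of 30 bases, 15 before and 15 from the annotated start on, for 3 members that rose, 4 that fell and pairs of core gene and paralog. They are shown so that the presence of the tract can be read beside each change, and the capitals mark the tract.
RPL41 (chr12:56116618-56116647, plus strand): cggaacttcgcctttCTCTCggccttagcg
RPL37A (chr2:216498829-216498858, plus strand): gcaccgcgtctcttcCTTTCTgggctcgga
RPL13 (chr16:89560667-89560696, plus strand): ttgcggggccgcttcCTTTCCgctcggctg
RPL22L1 (chr3:170870181-170870210, minus strand): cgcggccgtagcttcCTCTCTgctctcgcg
RPL22 (chr1:6199581-6199610, minus strand): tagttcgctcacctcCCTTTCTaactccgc
RPS15 (chr19:1438381-1438410, plus strand): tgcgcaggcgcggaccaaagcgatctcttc
RPL3 (chr22:39319609-39319638, minus strand): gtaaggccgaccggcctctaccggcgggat
RPL10A (chr6:35468386-35468415, plus strand): tgcgcaagacatgctagtctcttttccggt
RPL26 (chr17:8383179-8383208, minus strand): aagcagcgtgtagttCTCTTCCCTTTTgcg
RPL26L1 (chr5:172958714-172958743, plus strand): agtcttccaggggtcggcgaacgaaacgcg
RPS27 (chr1:153990747-153990776, plus strand): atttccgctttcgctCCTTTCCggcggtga
RPS27L (chr15:63157463-63157492, minus strand): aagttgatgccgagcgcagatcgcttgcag
The risers RPL41, RPL37A and RPL13 carry the tract, and so does RPL22L1, which fell. RPS15, RPL3 and RPL10A have none at the annotated start, although a pyrimidine run lies a few bases downstream in RPS15 and RPL10A and the run of RPL3 has 4 bases. RPL26 and RPS27 have the tract, and their paralogs RPL26L1 and RPS27L do not. A missing tract says only that these letters are not at the annotated start.

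Across the members the change was small and had no common direction. With the SHCBP1 shRNA, 26 of 71 ribosomal protein genes (36.6%) passed the threshold of an adjusted p of 0.05 (limma, Benjamini-Hochberg over all genes), against 41% of all genes. Of the 71 members, 11 were higher (15.5%), against 22% of all genes, and 15 were lower (21.1%), against 19%. The members' count rests on the number of arrays: leaving out any 1 array took it to between 15 and 18, a lower share than that of all genes in the same fits. The median difference was 0.02 on the log2 scale, and that of all genes was also 0.02. Only RPL30 moved at least 2-fold, a size that 1.22% of all genes passed with a call.

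Most differences were small, and replicates lay close together. The median size of the difference was 0.08 log2 units, against 0.11 for all genes; 45 members (63.4%) moved by no more than 0.1, against 47.4% of all genes, and 7 (9.86%) by at least 0.25, against 24.6%. The median SD within groups was 0.0231 for members and 0.0573 for all genes, and 64 of the 71 members (90.1%) lay below the latter. It ran from 0.00391 for RPS7 to 0.144 for RPL3L, the muscle paralog of RPL3. Accordingly 50 members (70.4%) had 3 SHCBP1 shRNA values all on one side of the 3 control values, against 50% of all genes. These shares are descriptions; whether the members differ from other genes was not tested.

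**Figure D1:**
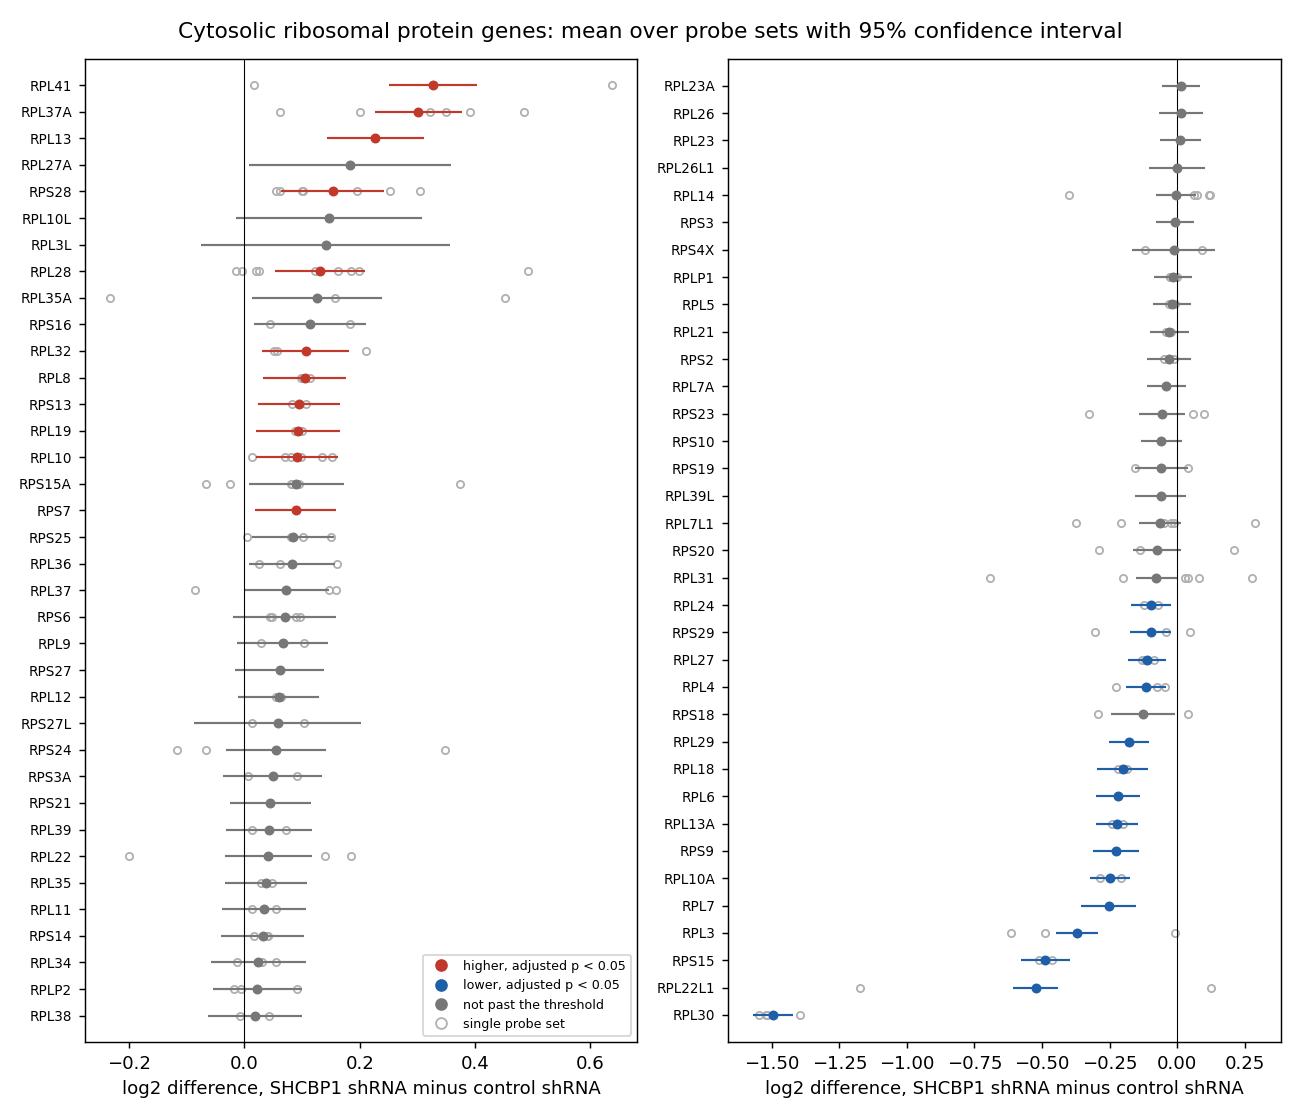
Difference between the groups for each of the 71 ribosomal protein genes, SHCBP1 shRNA minus control shRNA in log2 units (horizontal axis), sorted from the largest rise to the largest fall over both panels, whose horizontal scales differ. Filled points are means over probe sets with 95% confidence intervals from limma, and open circles are single probe sets. RPL30 lies at −1.49, apart from RPL22L1 at −0.52, and most other members lie near 0.

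**Figure D2:**
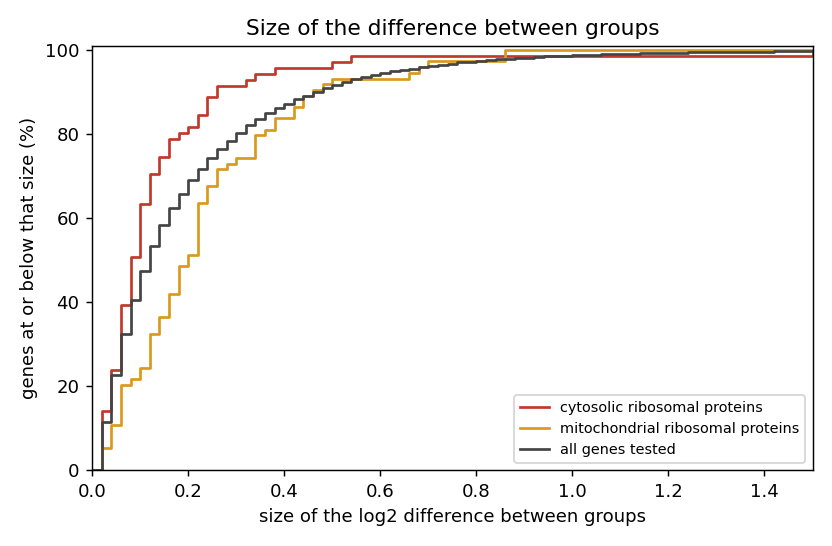
Percent of genes (vertical axis) whose difference between the groups was no larger than the size on the horizontal axis (log2 units), for 71 cytosolic ribosomal protein genes, 74 mitochondrial ribosomal protein genes and all 18132 genes tested. At a size of 0.1 the cytosolic curve stands at 63.4%, the curve of all genes at 47.4% and the mitochondrial curve at 24.3%.

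The deposited log2 signals have been centred: every probe set has a median of 0 across the arrays. A value is thus a distance from that median and not a level, and genes cannot be ranked by level or the cell type checked by markers. In bulk RNA, fewer cells with a transcript and less transcript per cell cannot be told apart. SHCBP1 itself read 0.72, 0.76 and 0.71 in controls and −0.95, −0.76 and −0.72 with its shRNA, a difference of −1.54 ± 0.06 (SE) with an adjusted p of 1.87e-06 in limma. The 24 poly-A spike-in probe sets, RNA added in a fixed amount during labelling, were higher by 0.43 ± 0.04 (SE) in the SHCBP1 shRNA arrays. Every direction given here is relative to the arrays' average gene: scaled to the spike-ins instead, 70 of the 71 members were lower and none was higher, since all genes move down by that amount. Their part in the results was not tested.

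RPL30, a large subunit protein that also binds its own transcript in yeast, fell more than any other member. It read 0.73, 0.77 and 0.73 in controls and −0.76, −0.73 and −0.76 with the SHCBP1 shRNA. The groups lie far apart with almost no spread inside either. The difference of −1.49 ± 0.03 (SE), or 2.82-fold, had a limma adjusted p of 2.91e-07 and ranked 33 among the falls of all genes, close to that of SHCBP1 itself at rank 27. All 4 probe sets of RPL30 gave it, with differences of −1.52, −1.52, −1.55 and −1.39. The gene hosts a small nucleolar RNA, SNORA72, in an intron, and the probe set for that RNA differed by −0.07 ± 0.09 (SE; limma adjusted p = 0.617). Its arrays scattered from −0.24 to 0.11, and its name ends in _s_at, so it may read transcripts of several genes. It does not show whether SNORA72 changed. Of its neighbours on the chromosome, RIDA fell by 0.36 and MTDH by 0.32, LAPTM4B rose by 0.12, and MATN2 (0.16), ERICH5 (0.07) and POP1 (0.05) did not pass the threshold.

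Among the other proteins of the large subunit, 8 rose and 11 fell in all, RPL30 included, of 41 measured. RPL3, which lies by the peptidyl transferase centre, read 0.15, 0.20 and 0.18 in controls and −0.17, −0.20 and −0.20 with the SHCBP1 shRNA, a difference of −0.37 ± 0.03 (SE; limma adjusted p = 7.74e-05). No SHCBP1 shRNA array reached a control array, but 50% of all genes had groups apart. The probe sets of RPL3 differed: those ending in _x_at gave −0.49 and −0.61, and the plain _at probe set gave −0.01. The gene thus passes only through the former.

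RPL7 fell by 0.25, RPL10A by 0.25, RPL13A, a protein released from ribosomes to silence mRNAs in interferon-treated cells, by 0.22, RPL6 by 0.22, RPL18 by 0.20 and RPL29 by 0.18. The groups did not overlap for any of these 6, which the naming rule required and which held for 50% of all genes. RPL10A, for example, read 0.13, 0.11 and 0.13 in controls and −0.11, −0.12 and −0.15 with the SHCBP1 shRNA (adjusted p = 0.000482). Both probe sets of RPL10A (−0.29 and −0.21) and of RPL13A (−0.24 and −0.20) were negative, whereas RPL7, RPL6 and RPL29 had 1 probe set each. RPL4 fell by 0.11, and the naming rule leaves out 3 further falls of 0.10 to 0.11, RPL27, RPL24 and the small subunit gene RPS29, named here after their values were seen.

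The rises of the large subunit were led by 3 genes. RPL41, the smallest ribosomal protein, read −0.14, −0.17 and −0.15 in controls and 0.20, 0.15 and 0.16 with the SHCBP1 shRNA. Its mean rise of 0.33 ± 0.03 (SE; limma adjusted p = 0.000139) joins probe sets that differ, 1 at 0.64 and 1 at 0.02. RPL37A read −0.14, −0.14 and −0.17 in controls and 0.13, 0.15 and 0.18 with the SHCBP1 shRNA. Its rise of 0.30 ± 0.03 (adjusted p = 0.000199) came from 6 probe sets that were all positive, from 0.06 to 0.49. RPL13 read −0.13, −0.12 and −0.09 in controls and 0.09, 0.09 and 0.16 with the SHCBP1 shRNA. This rise of 0.23 ± 0.04 (limma adjusted p = 0.00154) rests on its 1 single-symbol probe set, which ends in _x_at. Another probe set, shared by RPL13 and its pseudogene RPL13P12 and left out of the mean, differed by −0.04 and was not called. In the means of all 3 genes the arrays of the groups were fully separated, which the rule for naming rises required. The others were small: RPL28 rose by 0.13, RPL32 by 0.11, RPL8 by 0.10, RPL19 by 0.09 and RPL10, which is needed for the last step of subunit maturation, by 0.09. RPL28, read by 9 probe sets, ranged from −0.01 to 0.49 across them.

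In the small subunit, 6 of 23 measured genes were called (26.1%), 3 in each direction, against 19 of 41 (46.3%) in the large subunit and 41% of all genes, a contrast that was not tested. RPS15, which lies near the decoding site, had the largest change, reading 0.28, 0.25 and 0.20 in controls and −0.20, −0.28 and −0.25 with the SHCBP1 shRNA. That difference of −0.49 ± 0.04 (SE; limma adjusted p = 4.49e-05) was shared by both of its probe sets, at −0.46 and −0.51. RPS9, known for its part in translational accuracy, fell by 0.23 on 1 probe set, with control arrays at 0.12, 0.08 and 0.13 and SHCBP1 shRNA arrays at −0.08, −0.15 and −0.12. The rises were RPS28 (0.15), with 7 probe sets that were all positive, RPS13 (0.09) and RPS7 (0.09).

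The call of RPS7 was marginal. It read −0.04, −0.04 and −0.04 in controls and 0.04, 0.04 and 0.05 with the SHCBP1 shRNA, and its limma adjusted p was 0.0477. It was called in 0 of the 6 fits that left out 1 array, where its adjusted p reached 0.123. RPL10, RPL19, RPL24, RPL32, RPL8, RPS13 and RPS29 were also called in 0 of these fits. RPS6, the substrate of the S6 kinases, differed by 0.07 (95% confidence interval −0.02 to 0.16), RPS4X, whose gene lies on the X chromosome, by −0.01 (−0.17 to 0.14), and RPS19, the gene most often mutated in Diamond-Blackfan anaemia, by −0.06 (−0.16 to 0.04). None of these 3 passed the threshold. Of the 16 measured members from the Diamond-Blackfan anaemia list, 2 rose and 3 fell (31.2% called, against 41% of all genes).

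The parts of the large subunit that were listed by role gave 1 call, where 41% of all genes were called. It came from the 6 proteins at the tunnel exit (16.7%), and the P stalk and the pair RPL5 and RPL11 had 0 of 2 each. The P stalk, which recruits the GTPases of translation, was measured by RPLP1 at −0.01 (−0.09 to 0.06) and RPLP2 at 0.02 (−0.05 to 0.10). RPL5 and RPL11, which travel with 5S rRNA and bind MDM2 when unassembled, differed by −0.02 (−0.09 to 0.05) and 0.03 (−0.04 to 0.11). Of 6 measured proteins at the exit of the nascent peptide tunnel, RPL19 passed the threshold; RPL39 differed by 0.04 (−0.03 to 0.12), and the mean of RPL31 joins probe sets called in opposite directions (−0.69 and 0.28). Over all 45 members that were not called, the 95% confidence intervals reached from −0.25 (RPS18) to 0.36 (RPL27A). Those of 42 lay within 0.25 of 0, but they are intervals of means over probe sets and do not bound single probe sets. Called probe sets of these 42 lay beyond that size, such as those of RPL31 (−0.69 and 0.28), RPL35A (0.45) and RPL14 (−0.40).

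RPL22L1 was the only called paralog of 7 (14.3%, against 41% of all genes). RPL22L1 can replace RPL22, which represses it by binding its transcript, and it read 0.23, 0.29 and 0.23 in controls and −0.28, −0.23 and −0.31 with the SHCBP1 shRNA, a difference of −0.52 ± 0.04 (SE; limma adjusted p = 2.2e-05). The 2 probe sets disagreed: the _a_at probe set, which reads more than 1 transcript of the gene, read 0.61, 0.56 and 0.54 in controls and −0.54, −0.61 and −0.65 with the SHCBP1 shRNA, a difference of −1.17, and the plain _at probe set gave 0.12 with overlapping arrays and an adjusted p of 0.158. Its core gene RPL22 differed by 0.04 (−0.03 to 0.12), again from probe sets of both signs, with differences of 0.18, 0.14 and −0.20, each past the threshold.

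Of the other paralogs, RPL7L1, a nucleolar protein, differed by −0.06 (−0.14 to 0.02) beside the fall of RPL7. RPL3L differed by 0.14 (−0.07 to 0.36) beside the fall of RPL3, and its wide interval does not show whether the muscle form changed. RPL10L, a testis form, differed by 0.15 (−0.02 to 0.31) beside 0.09 for RPL10. RPL26L1 (0.00) and RPL26 (0.01), RPL39L (−0.06) and RPL39 (0.04), and RPS27L (0.06) and RPS27 (0.06) did not pass the threshold.

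**Figure D3:**
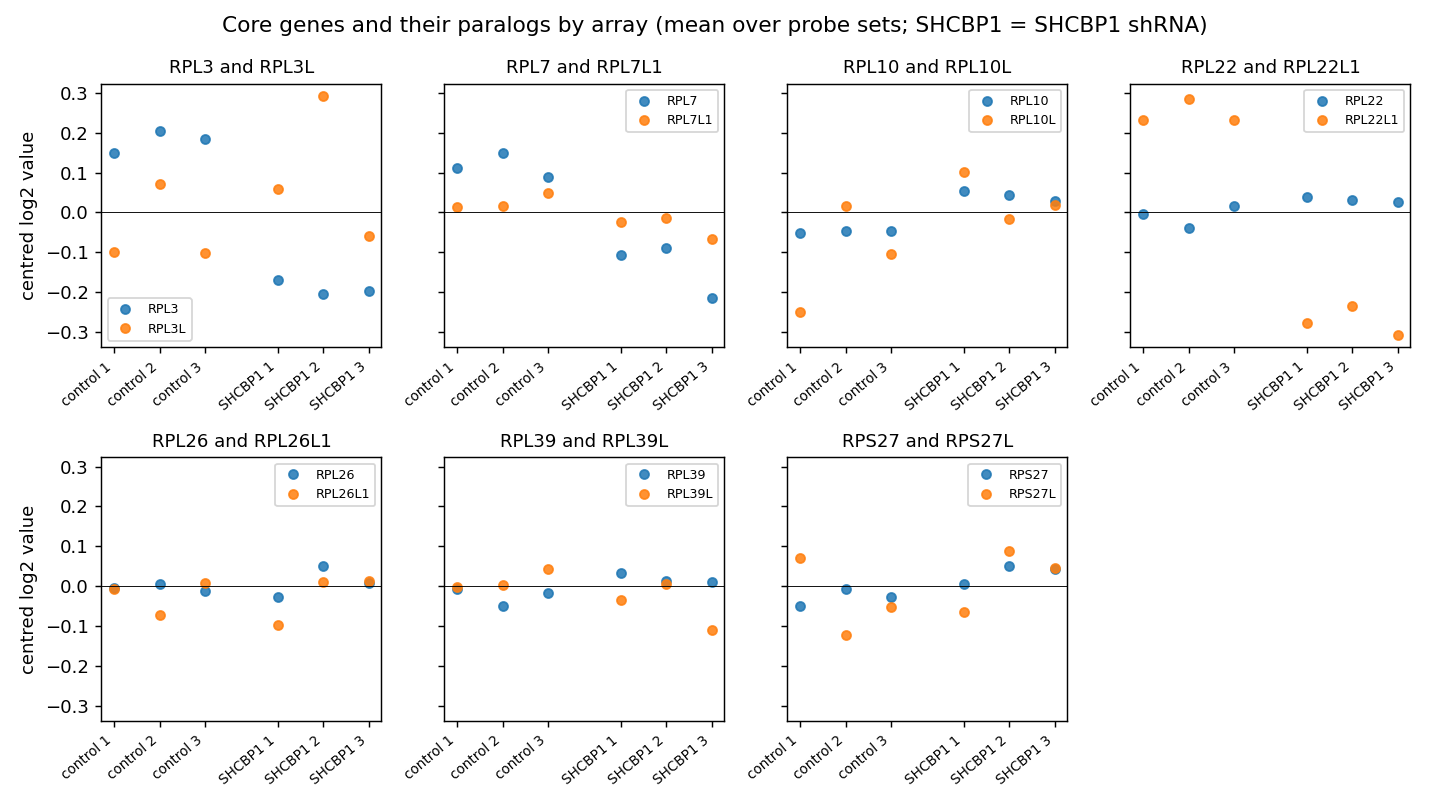
Centred log2 value, mean over probe sets (vertical axis), on each of the 6 arrays (horizontal axis) for 7 core ribosomal protein genes and their paralogs. The mean of RPL22L1 drops from between 0.23 and 0.29 in the control arrays to between −0.31 and −0.23, and its 2 probe sets differ by −1.17 and 0.12. The mean of RPL22 stays near 0, but its probe sets were called in both directions. RPL3 drops while the arrays of RPL3L overlap.

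The naming of the probe sets bears on these genes more than on most. On Affymetrix arrays a plain _at name marks a probe set for 1 transcript, _a_at one for several transcripts of a gene, _s_at one for transcripts that may come from several genes, and _x_at one with probes that may also match other sequences. Of the 186 member probe sets, 92 ended in _x_at (49.5%), against 15.9% of all probe sets with 1 gene symbol. RefSeq names 1609 pseudogenes for the 71 members, a median of 13 and up to 137 for RPL21. The 6 members with no named pseudogene had 0 of 8 probe sets ending in _x_at, and the other 65 had 92 of 178 (51.7%). All 6 are paralogs, so pseudogenes cannot be told apart here from being a paralog.

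By probe set, 56 of 186 (30.1%) were called, 26 higher and 30 lower, against 38% of all probe sets. Of the member probe sets, 33.3% of plain _at, 43.5% of _a_at, 31.2% of _s_at and 25% of _x_at were called, against 27.6%, 39.6%, 51.3% and 41.3% of all probe sets with those endings. The _s_at and _x_at probe sets of members thus lay below the share of their type, and the other endings above it. Their replicates were also closest, with a median SD of 0.0210 for _x_at and 0.0226 for _s_at, against 0.0707 for plain _at.

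Probe sets of 1 gene could oppose each other. Of the 52 members with at least 2 probe sets, 5 (9.62%) had a called rise and a called fall, against 4.08% of all such genes: RPL14, RPL22, RPL31, RPL7L1 and RPS20, of which RPS20 lies outside the naming rule. RPL31 went from −0.69 on its _a_at probe set, at 0.40, 0.28 and 0.37 in controls and −0.40, −0.28 and −0.35 with the SHCBP1 shRNA, to 0.28 on its _s_at probe set. Its mean of −0.08 (adjusted p = 0.101) missed the threshold and describes neither. RPL14 had 1 probe set at −0.40 and 4 between 0.06 and 0.12, RPL7L1 had 7 between −0.37 and 0.29, and RPL35A had 3 between −0.23 and 0.45.

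**Figure D4:**
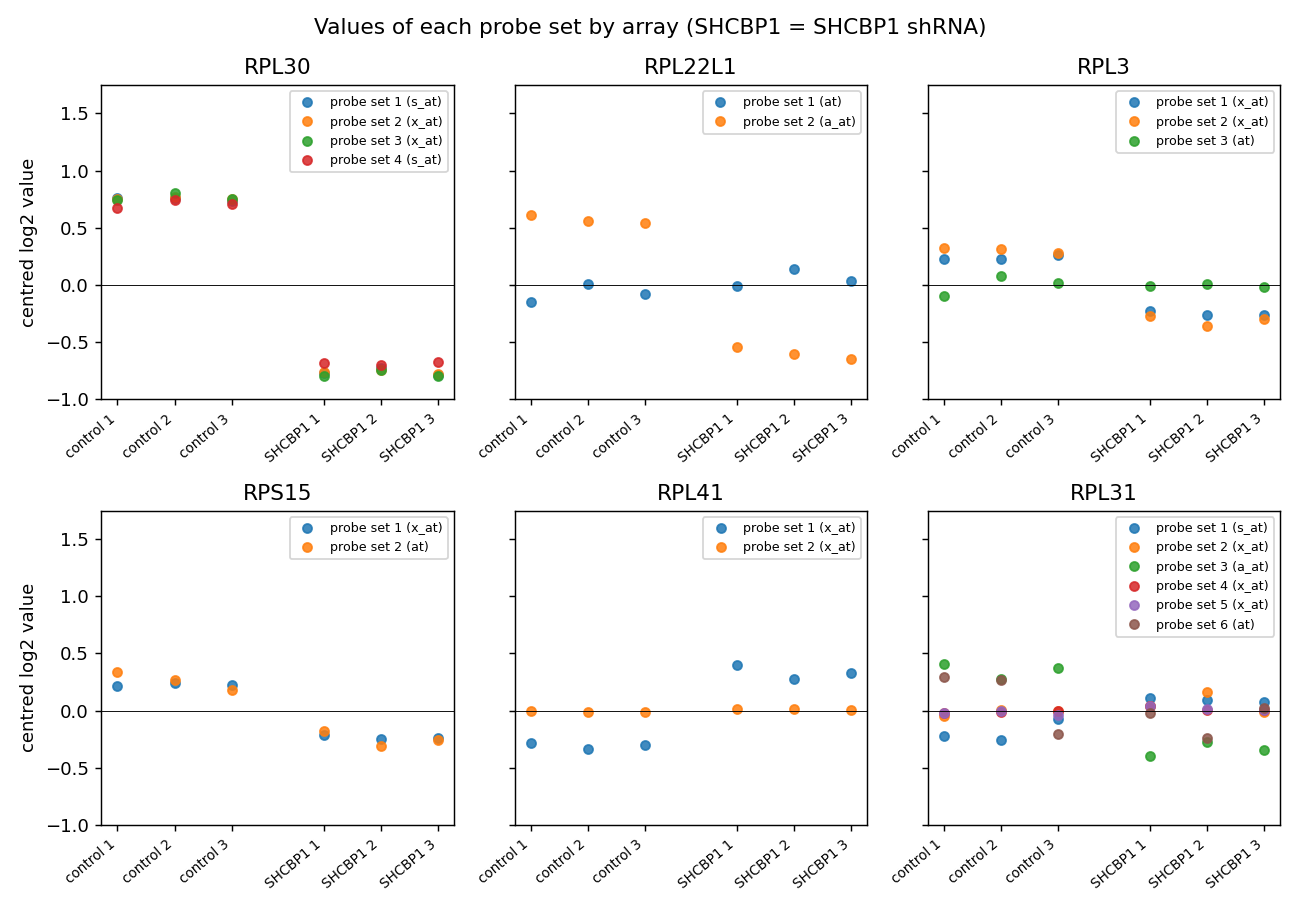
Centred log2 value of each probe set (vertical axis) on each of the 6 arrays (horizontal axis) for 6 ribosomal protein genes, with the ending of the probe set's name in the key. The 4 probe sets of RPL30 and both of RPS15 drop together, while those of RPL22L1, RPL3, RPL41 and RPL31 differ from each other.

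How far the calls hold depends on the number of arrays. Of the 26 called members, 14 passed in each of the 6 fits that left out 1 array: the rises of RPL41, RPL37A and RPL13 and the falls of RPL30, RPL22L1, RPS15, RPL3, RPL7, RPL10A, RPS9, RPL13A, RPL6, RPL18 and RPL29. The other 12, with sizes of 0.09 to 0.15, did not. The number of called members was 15 without control array 1, 18 without control array 2 or 3, 16 without SHCBP1 shRNA array 1 or 3 and 17 without SHCBP1 shRNA array 2, a share of 21.1% to 25.4% beside 36.7% to 37.7% of all genes. With each array centred on its median, 6 members were higher and 15 lower, beside 3770 and 3574 of all genes. With quantile normalization repeated, 5 members were higher and 15 lower, beside 3717 and 3633 of all genes. The split given first was 11 and 15, beside 3992 and 3448.

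Features of the genes were set beside the calls as a description. Of the 42 members with a TOP tract, 12 were called (28.6%), 6 in each direction, and of the 17 without one at an annotated start, 11 were called (64.7%), 4 higher and 7 lower, where 41% of all genes were called. The 12 members with no matched window, among them the called RPL30, RPL7 and RPL8, are in neither group. The 17 include the uncalled paralogs RPL10L, RPL26L1, RPL7L1 and RPS27L. An intron-hosted small nucleolar RNA gene lay inside 23 members, of which 5 rose and 4 fell (39.1% called), and 48 members had none, of which 6 rose and 11 fell (35.4% called); both shares lie near the 41% of all genes. Of those RNAs with a probe set of their own, both probe sets for SNORA3B in RPL27A were lower (−0.26 and −0.27) where the host read 0.18, and SNORD15B in RPS3 was higher (0.15) where the host read −0.01. In windows of 300 bases on both strands, from 250 before the start to 50 after it, the ETS-family motif CCGGAAG was in 39% of members and 12.2% of genes, and the YY1 motif AAGATGGC in 11.9% and 3.52%. The mitochondrial ribosomal protein genes held them in 43.5% and 30.4%. The TATA box TATAAA was in 10.2% of members and 14% of genes, and the E-box CACGTG, which MYC and MAX bind, in 8.47% and 8.77%. A motif match is not a bound site.

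The proteins of the mitochondrial ribosome, which is encoded apart from the cytosolic one, gave a different count. Of 74 genes, 53 were called (71.6%), 41 higher (55.4%) and 12 lower (16.2%), against 41%, 22% and 19% of all genes, with a median of 0.15 against 0.02 in the cytosolic set. The difference between the sets was not tested.

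The genes that act with the ribosomal proteins held some larger changes; their counts stand beside 22% of all genes that rose and 19% that fell. Among translation factors and other products of TOP mRNAs, 3 of 16 rose (18.8%) and 6 fell (37.5%). HNRNPA1, an RNA-binding protein, fell by 0.54 in the mean, with probe sets from −0.93 to 0.22. EEF1A1, which brings aminoacyl-tRNA to the ribosome, fell by 0.51, with probe sets from −1.06 to −0.03. EIF3L, an initiation factor subunit, fell by 0.35, with probe sets from −0.44 to −0.30. Of the genes that control TOP mRNAs or phosphorylate S6, 4 of 18 rose (22.2%) and 6 fell (33.3%). CNBP, which binds TOP mRNAs, fell by 0.92, with control arrays at 0.43, 0.48 and 0.47 and SHCBP1 shRNA arrays at −0.45, −0.44 and −0.49. The S6 kinase gene RPS6KB2 rose by 0.62 and the eIF4E inhibitor EIF4EBP2 by 0.48. Related genes outside the naming rule, named after their values were seen, did not share these rises. RPS6KB1 differed by 0.05 and was not called, and EIF4EBP1 fell by 0.36, EIF4E by 0.45 and LARP1 by 0.20. MTOR itself differed by 0.00 with an adjusted p of 0.978.

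Chaperones, importins and assembly factors of ribosomal proteins were called in 15 of 17 cases, 5 higher (29.4%) and 10 lower (58.8%), again beside 22% and 19% of all genes. AATF, a nucleolar factor of small subunit assembly, fell by 0.99, and TSR2, the chaperone of RPS26, rose by 0.82, as did RPS19BP1, a small subunit assembly factor that binds RPS19, by 0.58. Of the transcription factors known at ribosomal protein promoters, 6 of 11 rose (54.5%) and 3 fell (27.3%). MYC read 0.55, 0.61 and 0.58 in controls and −0.61, −0.55 and −0.72 with the SHCBP1 shRNA, a difference of −1.21 (limma adjusted p = 1.91e-06), whereas TBPL1, a TBP-like initiation factor, rose by 0.59 and the cell cycle factor E2F1 by 0.58. MYC, TBPL1 and E2F1 had 1 probe set each, as did AATF and RPS19BP1. Of 16 ribosome quality control genes 1 rose (6.25%) and 10 fell (62.5%), with NEMF, which marks stalled large subunits, down by 0.55, ANKZF1, which releases their peptide from tRNA, by 0.47, and GTPBP2, a rescue factor, by 0.44. That list also holds MDM2, which unassembled RPL5 and RPL11 bind, and its fall of 0.30 is among the 10. Of the other ribosomal protein genes outside the name rule, FAU, which encodes RPS30 fused to a ubiquitin-like protein, rose by 0.16, and RPL36AL differed by 0.04 with an adjusted p of 0.517.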

How the data were processed

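Biotin-labelled RNA of 6 samples was hybridised to 1 array each, 3 per group by the titles. The deposited values are log2 signals; the submitters' processing notes name RMA, the log base is taken as 2 because RMA gives log2, and the centring of each probe set on its median was found in the deposited values. Of 49395 probe sets, 102 Affymetrix controls were left out, 44988 had 1 symbol in the platform annotation, 1832 had several and 2473 none. Means over a gene's single-symbol probe sets were compared with limma 3.58.1 in R 4.3.3 (lmFit, eBayes, no block), with p-values from these deposited values adjusted by Benjamini-Hochberg over 18132 genes, or 49293 probe sets. The fit was tested on simulated data. No depth applies; 3 arrays per group limit the precision. The members and lists were chosen with earlier results of these data known. Named were the 12 largest rises (11 existed) and falls past the threshold with separated groups, listed core genes and paralogs, the 8 widest in probe sets, and up to 3 genes of each pathway list. Some subunit genes are not reported here. Alternatives were quantile normalization, median centring, spike-in scaling, array weights, robust moderation, a replicate block, left-out arrays, restricted or median probe sets, and repeated symbols counted as 1, the last chosen after seeing the data.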

Additional observations from a re-analysis of the deposited data

How the results depend on the processing

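The direction and call of RPL30 held under every alternative that left it a probe set. Scaled to the spike-in controls, 16709 of 18132 genes were called, 70 of 71 members and 174 of 186 member probe sets, with a median of −0.42 over members; the signs then turned for RPL10 (−0.34), RPL10L (−0.29), RPL11 (−0.40), RPL13 (−0.21), RPL19 (−0.34), RPL22 (−0.39), RPL26 (−0.42), RPL28 (−0.30), RPL32 (−0.33), RPL35A (−0.31), RPL37A (−0.13), RPL39 (−0.39), RPL3L (−0.29), RPL41 (−0.11), RPL8 (−0.33), RPLP2 (−0.41), RPS13 (−0.34), RPS27 (−0.37), RPS27L (−0.38), RPS28 (−0.28), RPS6 (−0.36) and RPS7 (−0.34), because every gene moves down by the same amount. With only plain _at probe sets, 1900 of 8354 genes, 11 of 35 members and 12 of 39 member probe sets were called, the members' median was 0.0283, and RPL22L1 stood at 0.12; fewer probe sets are tested there. Without _x_at probe sets 33 of 94 member probe sets were called, and without _s_at and _x_at 21 of 62. By gene, 39.9% and 37.8% of all genes were called in the same settings. The share over all probe sets is not given for any of these settings, so the probe set counts allow no comparison. The members' median was 0.0047 with quantile normalization repeated and 0.0077 with arrays centred on their median, and 0.0155 to 0.0287 with 1 array left out, which gave 15 to 18 called members. With the replicate number as a block, 16 members were called (22.5%; 5 higher, 11 lower), beside 7092 of all genes (39.1%; 3783 higher, 3309 lower). The correlations of same-numbered arrays were 0.018, −0.046 and 0.067, so the numbers are not taken to pair the samples. Of the 43 named members, 42 kept call and sign with array weights and 42 with robust moderation. Counting repeated symbols as 1 could not change the mean of any named member. Among ribosomal protein genes it adds probe sets only to RPL37 and RPS26, and neither is named. The number of arrays, and values without levels, limit all of this.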

Other observations

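The probe sets left out of the gene means because the annotation gives them several symbols hold 38 that name a ribosomal protein. The annotation repeats RPL37 as the only symbol of 3 of them, and these differed by −0.62, −0.61 and −0.80 between SHCBP1 shRNA and control shRNA arrays, each past the threshold in limma. The single-symbol probe sets of RPL37, a large subunit protein, gave −0.09, which was not called, and 0.15 and 0.16, which were. A probe set that repeats RPS26, a small subunit protein at the mRNA exit, was higher by 0.48, and 1 shared by RPL36A and its readthrough with HNRNPH2 differed by −0.60. A probe set shared by RPL23 and its intronic SNORA21 was higher by 0.55. Another, shared by RPL41 and 3 of its pseudogenes, differed by −0.28, against 0.64 and 0.02 on those of RPL41 alone. Each of these shared probe sets was called. These values were chosen after they were seen and enter no count.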
